A study of Mus musculus with 2 samples.

Results

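The Myb family of mouse transcription factor genes was followed through a DNase I hypersensitive site sequencing (DHS-seq) experiment in M1 cells, a murine myeloid leukemia line with the properties of myeloid progenitors. The family was taken by gene symbol and comprised Myb (c-myb), Mybl1 (A-myb) and Mybl2 (B-myb), which are 3 of 22605 genes and 9 of 55432 transcripts in the deposited table. One library came from untreated M1 cells and the other from M1 cells kept in medium with interleukin-6 (IL-6), a cytokine that drives M1 cells toward macrophages, for 4 to 5 days, and both used cells of passages 15 to 18. Nuclei were cut lightly with DNase I and the small fragments released where the enzyme cut at both ends were sequenced, so that reads pile up on open chromatin. With 1 library per condition, treatment and library cannot be told apart, no test between conditions was possible. All intervals reflect counting error alone, either within a library or between one library and the other.

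The members of the family share a DNA-binding domain of repeated Myb motifs near the amino terminus and differ more in the rest of the protein. c-Myb keeps blood progenitors proliferating and is normally switched off as myeloid cells mature. Its own gene is known for control at the level of elongation, in the first intron, and for distant upstream elements. A-Myb drives meiotic and piRNA genes in male germ cells, whereas B-Myb is made in nearly all dividing cells, where it joins the MuvB complex to activate genes of the G2/M phase. The gene for B-Myb is itself a classical E2F target, kept silent in resting cells by the DREAM complex.

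The sequences just upstream of Myb and Mybl2 are shown because, in both genes, the part that holds the start region had the larger change after IL-6 (described further on). Each sequence holds the 150 bases before the RefSeq transcription start, read 5′ to 3′ on the strand of the gene from the RefSeq promoter table (GRCm38.p6) and placed in NCBIM37 by its single exact match. For Mybl2 the annotated start used here for gene positions lies 52 bases further downstream. Capitals mark the E2F motif GGCGGGA.
Myb, chr10:20880791-20880940, minus strand: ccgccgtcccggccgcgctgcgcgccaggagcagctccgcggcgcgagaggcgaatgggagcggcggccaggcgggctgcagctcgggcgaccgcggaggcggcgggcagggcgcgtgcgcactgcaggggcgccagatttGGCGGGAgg
Mybl2, chr2:162880221-162880370, plus strand: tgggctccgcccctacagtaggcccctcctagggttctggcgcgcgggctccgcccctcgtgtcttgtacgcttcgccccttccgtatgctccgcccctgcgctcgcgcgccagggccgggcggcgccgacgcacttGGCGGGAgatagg
Both stretches were rich in G and C, with 80.7% G+C and 26 CpG dinucleotides for Myb and 73.3% and 20 for Mybl2. Each held the E2F motif once, from 9 to 3 bases before the start in Myb and from 13 to 7 bases before it in Mybl2. Over the 250 bases before the start, searched on both strands, GGCGGGA was present in 9.75% of 32851 mouse promoters. The GC box GGGCGG, present in 32.7% of promoters, occurred 3 times upstream of Myb and 4 times upstream of Mybl2. The Myb recognition motif AACNG, present in 74.2% of promoters, was found at 2 places upstream of Mybl2 and at none upstream of Myb. Neither window held the cell cycle homology element TTTGAA (16.0% of promoters), the PU.1 core GAGGAA (23.3%), the Meis1 motif TGACAG (15.9%), the cyclic AMP response element TGACGTCA (1.55%) or the TATA box TATAAA (12.4%). These motifs were chosen after the sequences had been seen, and a match of letters is not evidence of binding.

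Translation of the annotated coding sequences gave 648 residues for the Myb transcript that stood for the gene, 751 for Mybl1 and 704 for Mybl2. The other Myb transcripts encode 636 and 735 residues, and the short Mybl2-005 encodes 263. In pairwise alignments c-Myb and A-Myb were identical at 52.2% of 596 aligned residues, c-Myb and B-Myb at 41.5% of 614, and A-Myb and B-Myb at 46.4% of 673. The best 150-residue stretch reached 92% identity between c-Myb and A-Myb (c-Myb residues 62 to 211), and 76.7% between c-Myb and B-Myb (c-Myb residues 55 to 204). The closest relatives in protein sequence, Myb and Mybl1, were the pair farthest apart in DNase I signal over their coding spans in untreated cells. After IL-6 that pair was Mybl2 and Mybl1. The span measured for Mybl1 leaves out its start site, unlike that of Myb. The shorter transcripts Myb-201 and Mybl2-005 also leave out the start. With them, in untreated cells, Myb stood at 4.02 times Mybl1 (3.31 to 4.90) and Mybl2 at 3.38 times Mybl1 (2.63 to 4.35).

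The table gives, for each transcript, the mean and standard deviation (SD) of reads over all 700-bp windows touched by the coding span, with introns included. Myb (chromosome 10, minus strand, NCBIM37) has 15 exons between 20844736 and 20880790 and was represented by 51 windows from 20845301 to 20881000, which include its start site. Mybl2 (chromosome 2, plus strand) has 14 exons between 162880423 and 162910424 and was represented by 42 windows from 162880201 to 162909600, also with the start site. Mybl1 (chromosome 1, minus strand) has 16 exons between 9657496 and 9690290, and its 44 windows run from 9659301 to 9690100. The annotated start site of Mybl1 lies 190 bp beyond these windows, so its values do not include the start of the gene, whereas those of the other members do. An annotated antisense RNA, Gm16786, lies within the Myb span, and DNase I reads on the same DNA cannot be assigned to either. Of the 9 transcripts, 2 of Myb and all 4 of Mybl1 shared the same windows and values, while Myb-201 and Mybl2-005 covered fewer windows.

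Over the whole table, non-overlapping coding spans on chromosomes 1 to 19 and X held 9102320 reads from untreated and 8544903 from IL-6-treated cells. Values of the IL-6 library are given as deposited, with each read counted as 1.038 reads, unless raw reads are named. This factor was inferred from the steps of the values and its purpose is not stated. Nor is it stated whether single reads or whole fragments were counted. Counting both ends of a fragment would make the intervals given here too narrow. The median gene had a mean of 7.75 reads per window before and 8.14 after IL-6, and among the 18472 genes in which one or both libraries exceeded 21 reads the median log2 ratio of IL-6 to untreated was 0.03. The libraries also differed in how reads were spread. In the 10290 genes with at least 20 windows the median ratio of variance to mean between windows was 7.39 in untreated and 3.93 in IL-6-treated cells, and it was lower after IL-6 in 75.8% of them. None of 34 markers of 5 cell types, lymphoid and erythroid ones included, was at 0 in either library. The median of the mean reads per window was 15.0 for the 7 progenitor markers, 8.79 for the 10 macrophage markers, 8.74 for the 6 T cell markers, 8.71 for the 5 B cell markers and 6.39 for the 5 of 6 erythroid markers that passed the filter on reads, in untreated cells.

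Myb and Mybl2 had a similar level of DNase I signal in untreated cells, and Mybl1 stood well below both. The Myb span held 721 reads in the untreated library, which gave 14.1 per window (95% Poisson interval, 13.1 to 15.2). Mybl2, with 514 reads, averaged 12.2 per window (11.2 to 13.3), and Mybl1, with 130 reads, averaged 2.95 (2.47 to 3.51). Per window, Myb thus stood at 1.16 times Mybl2 (95% Clopper-Pearson interval, 1.03 to 1.30) and at 4.78 times Mybl1 (3.96 to 5.81), with Mybl2 at 4.14 times Mybl1 (3.41 to 5.06). The excess of Myb over Mybl2 was small. Between the transcripts with the fewest windows, which hold fewer reads, the ratio was 1.19 with a wider interval of 0.978 to 1.45 that spans 1.

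After IL-6 the order of Myb and Mybl2 was the opposite. The 360 reads of Myb gave, after scaling, 7.33 per window (6.59 to 8.13), and the 390 reads of Mybl2 gave 9.64 (8.71 to 10.6). The 117 reads of Mybl1 gave 2.76 per window (2.28 to 3.31). Within the IL-6 library Myb stood at 0.760 times Mybl2 (0.657 to 0.880) and at 2.65 times Mybl1 (2.15 to 3.30), and Mybl2 at 3.49 times Mybl1 (2.83 to 4.33). Mybl2 was therefore the member with the highest mean per window after IL-6, and the intervals of the 3 levels did not overlap in that library. These ratios within a library do not depend on how the libraries are scaled to each other.

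**Figure D1:**
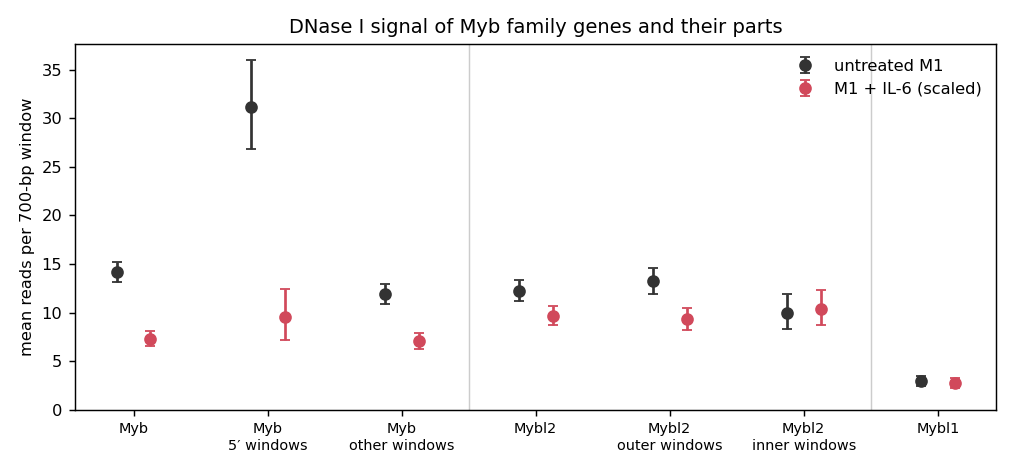
Mean DNase I reads per 700-bp window, on the scale of the table, over the spans of Myb, Mybl2 and Mybl1 and over the parts into which Myb and Mybl2 could be divided, in untreated (black) and IL-6-treated (red) M1 cells, with bars giving 95% Poisson intervals of 1 library each. Myb (14.1 to 7.33) passes below Mybl2 (12.2 to 9.64), Mybl1 (2.95 to 2.76) is lowest in both libraries, and the 5′ windows of Myb stand highest in untreated cells (31.2).

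Among the 22001 genes with reads, the mean of Myb lay at the 74.5th percentile in untreated and at the 42.8th in IL-6-treated cells. Mybl2 lay at the 69.2nd and then the 59.4th percentile, and Mybl1 at the 15.0th and then the 9.75th. The counting intervals of the Myb positions, 71.8 to 76.8 and 36.6 to 48.5, lay far apart. Those of Mybl2 came close (65.4 to 72.4 and 52.9 to 65.3), and those of Mybl1 overlapped (12.2 to 19.5 and 7.46 to 13.0).

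The IL-6 to untreated ratio, on the scale of the table, was 0.518 for Myb (0.455 to 0.589), 0.788 for Mybl2 (0.689 to 0.900) and 0.934 for Mybl1 (0.722 to 1.21). On the log2 scale with 0.5 reads added these differences were −0.95, −0.34 and −0.10. None of the 3 members was at least 2-fold lower, beside 13.4% of the 18472 genes, and none was at least 2-fold higher, beside 1.71%. Myb lay just inside the 2-fold line and just crossed it when the reads were not scaled, with an interval of −1.19 to −0.82 on the log2 scale. An interval wholly below 1, as seen for Myb and Mybl2, was found for 34.4% of these genes. The log2 ratio of Myb lay at the 13.3rd percentile of all genes with reads, that of Mybl2 at the 29.2nd and that of Mybl1 at the 40.0th.

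**Figure D2:**
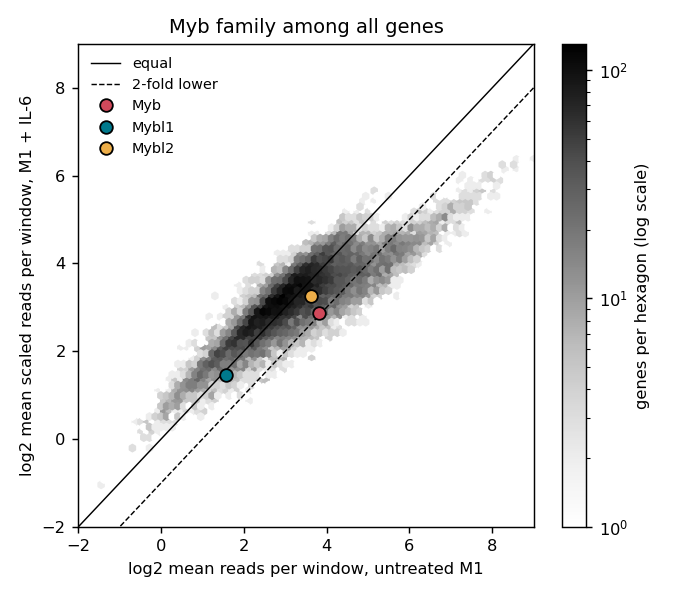
Log2 mean scaled reads per window after IL-6 against log2 mean reads per window in untreated cells for genes exceeding 21 reads in one or both libraries, shaded by the number of genes per hexagon on a log scale, with lines for equal levels and for a 2-fold lower level, and 24 of 18472 genes outside the axes. Myb lies just above the 2-fold line, at a log2 ratio of −0.95, while Mybl2 (−0.34) and Mybl1 (−0.10) lie nearer the line of equal levels.

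The size of the ratio varied with the level of the gene over the whole table, which bears on any comparison of Mybl1 with the other members. When the genes were divided into 4 equal groups by the sum of both means, Myb and Mybl2 fell in the third group (19.1 to 30.1 reads per window) and Mybl1 in the lowest. The median log2 ratio was 0.34 in the lowest group, −0.03 in the third group and −0.82 in the highest. At least 2-fold lower were 6.97% of the third group and 42.7% of the highest. Myb (−0.95) and Mybl2 (−0.34), in the same group, both lay below its median, by different amounts. Mybl1, at −0.10 (−0.47 to 0.27), lay below the median of the lowest group. It was farther from that median than Mybl2 was from the median of the third group.

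The ratio between libraries depended on the scaling, whereas a factor common to all chromosomes leaves the comparison between members as it is. When the libraries were scaled by the median ratio over strong single windows (at least 22 reads in both), an IL-6 read counted as 3.68 reads, every log2 ratio was 1.83 higher, and Myb, Mybl2 and Mybl1 all lay above untreated. Any such common factor cancels in the ratio of one member's change to that of another. The change of Myb was 0.658 times that of Mybl2 (exact conditional 95% interval, 0.546 to 0.793) and 0.555 times that of Mybl1 (0.415 to 0.742). The change of Mybl2 was 0.843 times that of Mybl1, with an interval of 0.630 to 1.13 that spans 1. Myb therefore lost signal relative to both paralogs between these libraries by more than counting error. A difference in change between Mybl1 and Mybl2 was not detectable at this depth. With Myb-201, which leaves out the start as the Mybl1 span does, Myb changed by 0.635 times Mybl1 (0.472 to 0.855). A shift that varies with level does not cancel between Mybl1 and the other members, and its share was not tested. Scaling each member by the total of its own chromosome, which does not cancel, gave 0.652 (0.541 to 0.786) for Myb against Mybl2, 0.597 (0.447 to 0.798) for Myb against Mybl1 and 0.915 (0.683 to 1.23) for Mybl2 against Mybl1.

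**Figure D3:**
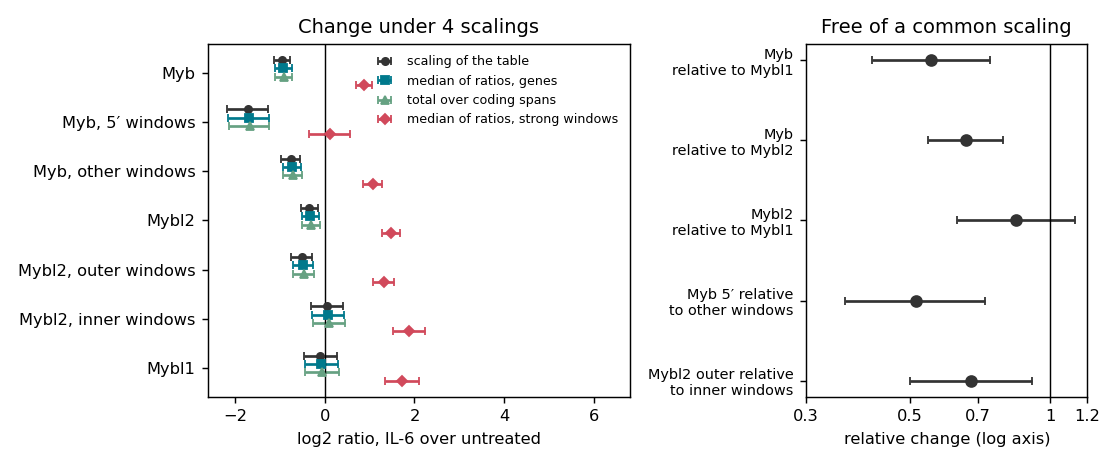
Left, log2 ratio of IL-6 to untreated reads for each member and part with 95% intervals under 4 scalings of the libraries. Right, the change of one member or part relative to another with 95% intervals, on a log axis. On the left the scaling over strong windows (red) moves every value up by 1.83, and on the right, free of any common factor, Myb lies below 1 against both paralogs (0.555 and 0.658) while Mybl2 against Mybl1 spans 1 (0.843).

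The shorter transcripts allowed Myb and Mybl2 each to be divided into a pair of parts. The 6 windows of Myb that Myb-201 leaves out, 20876801 to 20881000, hold the start site and exon 1, and the other 45 hold exons 2 to 15. The 5′ windows held 187 reads in untreated and 55 in IL-6-treated cells, means of 31.2 (26.9 to 36.0) and 9.52 (7.17 to 12.4) reads per window. The other windows held 534 and 305 reads, means of 11.9 and 7.04. The 5′ windows thus stood at 2.63 times the rest of Myb in untreated cells (2.21 to 3.11) and at 1.35 times in IL-6-treated cells (0.996 to 1.81), the latter within counting error of an equal level. Relative to the rest of the gene, the 5′ windows changed by a factor of 0.515 (0.362 to 0.724). Strong single windows over the whole table, with at least 22 reads in both libraries, had a median untreated to IL-6 read ratio of 3.68. Under that scaling the log2 ratio of the 5′ windows was 0.12 (−0.35 to 0.56). A shift that varies with level does not cancel between a strong and a weak part, and its share was not tested.

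Mybl2 also changed unevenly along its length. Mybl2-005 covers 13 inner windows, 162899801 to 162908900, which touch exons 8 to 13, and these held 130 reads in each library, means of 10.0 (8.35 to 11.9) and, scaled, 10.4 (8.67 to 12.3) reads per window. The remaining 29 windows, 28 of them on the 5′ side with the start site and 1 at the 3′ end, held 384 and 260 reads. Their means were 13.2 (11.9 to 14.6) and 9.31 (8.21 to 10.5) reads per window. Relative to the inner windows the outer windows changed by a factor of 0.677 (0.502 to 0.914), and their level went from 1.32 times the inner windows (1.08 to 1.63) to 0.897 times (0.724 to 1.12). In both genes the part with the start region was the higher one in untreated cells, and in neither was it above the other part beyond counting error after IL-6. The limit given for the parts of Myb, a shift that varies with level, holds for those of Mybl2 as well.

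The parts also showed where Myb and Mybl2 differed. The 5′ windows of Myb stood at 2.35 times the outer windows of Mybl2 in untreated cells (1.97 to 2.81) and at 1.02 times after IL-6 (0.750 to 1.37), a relative change of 0.434 (0.303 to 0.616). The rest of Myb changed by 0.571 times the inner windows of Mybl2 (0.427 to 0.764). Against the outer windows of Mybl2 the rest of Myb changed by 0.844 times, with an interval of 0.679 to 1.05. The parts compared differ in length, and the deposited mean does not place reads within a part.

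The SD between windows adds how unevenly the reads lay. In Myb the SD was 18.9 reads around the mean of 14.1 in untreated cells and 5.58 around 7.33 after IL-6. In Mybl2 it was 15.5 and then 5.72 reads, and in Mybl1 3.59 and then 2.43. The ratio of variance to mean, computed from raw reads and near 1 for reads placed at random, was 25.3 and then 4.09 for Myb, 19.6 and then 3.27 for Mybl2, and 4.36 and then 2.06 for Mybl1. The ratio was lower after IL-6 in 7802 of the 10290 genes with at least 20 windows. The log2 changes of this ratio, −2.63 for Myb, −2.58 for Mybl2 and −1.08 for Mybl1, lay at the 23.6th, 24.4th and 47.2nd percentiles of these genes. In the 5′ windows of Myb the ratio went from 9.76 to 0.891.

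The mean and SD together bound the strongest single window of each span. The strongest window of Myb held between 39 and 146 raw reads in untreated and between 12 and 44 in IL-6-treated cells. That of Mybl2 held between 32 and 110 and then between 13 and 44 reads. That of Mybl1 held between 8 and 26 and then between 5 and 17 reads. Against 21 reads, above which a site was taken as hypersensitive when these data were processed, Myb and Mybl2 each had at least 1 stronger window in untreated cells, and Mybl1 may or may not have had one. After IL-6 no window of Mybl1 exceeded 21 reads, as raw reads or on the scale of the table, whereas under the scaling over strong windows its bounds were 18.4 to 62.6 reads.

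Within Myb, the strongest of the 5′ windows held between 40 and 66 reads in untreated cells and between 10 and 15 after IL-6, so that no 5′ window exceeded 21 reads in treated cells, as raw reads or on the scale of the table. Under the scaling over strong windows the same bounds came to 36.8 to 55.2 reads, above 21. The strongest of the other Myb windows held between 39 and 130 and then between 12 and 43 reads. Myb therefore had at least 1 window above 21 reads on each side of the division in untreated cells, in the 5′ windows and in the rest of the gene. In Mybl2 the strongest inner window held between 13 and 25 reads in untreated cells and the strongest outer window between 38 and 108. The strongest window of Mybl2 thus lay outside exons 8 to 13 in untreated cells. After IL-6 the bounds of the inner windows (13 to 28 reads) and of the outer windows (13 to 37) overlapped.

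**Figure D4:**
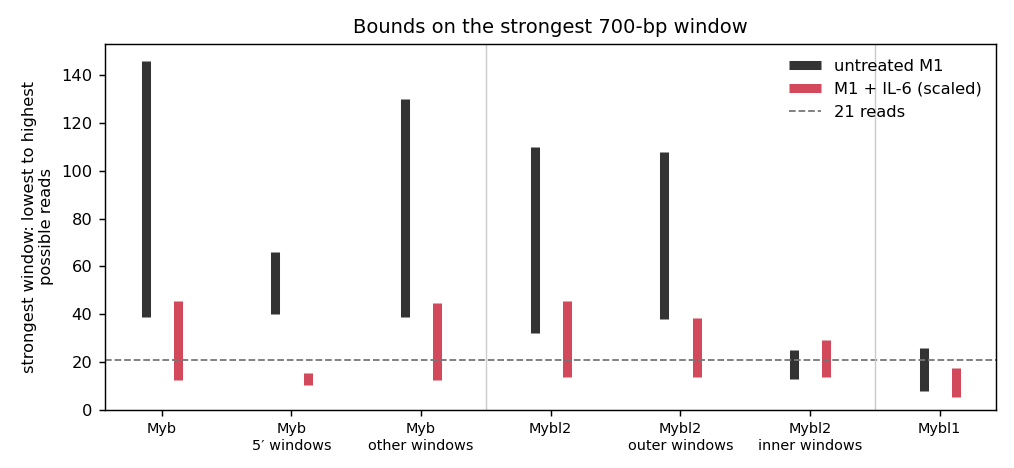
Lowest to highest possible reads in the strongest 700-bp window of each member and part, computed from the mean and SD, in untreated (black) and IL-6-treated (red, scaled) M1 cells, with a dashed line at 21 reads. In untreated cells the Myb 5′ windows (40 to 66) and the Mybl2 outer windows (38 to 108) lie above the line, and after IL-6 the Myb 5′ windows (10.4 to 15.6 scaled reads) and Mybl1 (5.19 to 17.6) lie below it.

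Base composition differed between the members. The spans had 43.4% G+C for Myb, 35.1% for Mybl1 and 50.3% for Mybl2, at the 36.5th, 1.34th and 74.4th percentiles of 22575 genes, and 15.4, 5.16 and 18.7 CpG per kb. The 5′ windows of Myb had 53.0% G+C and 46.9 CpG per kb, and its other windows 42.1% and 11.1. The inner windows of Mybl2 had 52.5% and 21.1 CpG per kb, and its outer windows 49.3% and 17.6. The member with the lowest signal in both libraries was the one with the lowest G+C content, and the part of composition in its level was not tested.

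The genes nearest to each member in both levels were found by the Euclidean distance between log2 means, among genes with 0.5 to 2 times the windows. For Myb these were Trappc6b (376 and 189 reads, distance 0.0232), Wibg (385 and 193 reads, 0.0239) and Mcee (411 and 212 reads, 0.0521) of 6192 genes compared. For Mybl2 they were Skil, P2rx7 and Npc1, at 0.00599, 0.00847 and 0.0124, and for Mybl1 they were Ocrl, Cept1 and Ankrd22, at 0.0189, 0.0234 and 0.0504. Within a distance of 0.1 there were 62 genes around Mybl2, 17 around Myb and 6 around Mybl1. The likeness is over 2 libraries only and says nothing of shared function.

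Genes tied to the Myb proteins were described in 6 lists. The medians of 4 lists, those of the B-Myb targets, the DREAM and MuvB genes, the factors at c-myb and the A-Myb targets, keep their sign under the other scalings over all genes or whole spans, which shift log2 ratios by −0.05 to 0.04. Under the scaling over strong windows, 2 of the 75 listed genes that passed the filter, Jun and Ube2c, stayed below untreated, compared with 44 under the table's scaling. The medians are therefore given beside the median of all genes past the filter, 0.03, which moves by the same shift. Shares of a list past 2-fold stand beside the 13.4% and 1.71% given above.

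Of the 17 G2/M genes known as B-Myb targets, 6 were at least 2-fold lower after IL-6, none was at least 2-fold higher, and the median log2 ratio was −0.51. The counting interval of the ratio lay below 1 for 12 of the 17, beside 34.4% of the genes past the filter, and above 1 for 1. The 6 genes past 2-fold included Ube2c (532 and 144 raw reads, log2 ratio −1.83), which primes mitotic cyclins for destruction, Ccna2 (508 and 163, −1.58), which encodes cyclin A, Cdc20 (294 and 110, −1.36), an activator of the anaphase-promoting complex, and Ccnb1 (203 and 76, −1.36), which encodes cyclin B. Aurka (585 and 271, −1.05), a spindle kinase, and Prc1 (585 and 274, −1.04), which bundles midzone microtubules, completed the group. This list also had the highest median level in untreated cells, 16.8 reads per window beside 9.33 for the 18472 genes past the filter on reads, and across the table highly covered genes had the lower ratios. Of the 13 genes listed for the DREAM and MuvB complexes and factors tied to them, 2 were at least 2-fold lower, 8 had an interval below 1, and the median log2 ratio was −0.41. The 2 genes were Rbbp4 (531 and 188 reads, −1.44), a histone-binding subunit, and E2f4 (360 and 171, −1.02), the E2F factor of DREAM. Mybl2 itself, at −0.34, lay near the medians of both lists.

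Around c-Myb the lists of partners and targets had medians near that of all genes past the filter. Of 12 partners and modifiers of c-Myb protein, 2 were at least 2-fold lower and the median log2 ratio was −0.04. The 2 genes were Pim1 (211 and 74 reads, −1.45), a kinase that acts with c-Myb, and Trim28 (397 and 149, −1.36), a corepressor. Of 13 genes known as c-Myb targets in blood cells, 12 passed the filter on reads, all but Rag2 with 11 and 10 reads, and the median log2 ratio was 0.00. Myc (507 and 155 reads, −1.65) and Prtn3 (309 and 111, −1.42), the gene of the granule protease proteinase 3, were at least 2-fold lower. The counting interval lay above 1 for 3 targets, Kit at 0.41, Mpo at 0.33 and Gata3 at 0.53, all within 2-fold. It lay below 1 for 3, Myc, Prtn3 and Bcl2 (2349 and 1705 reads, −0.41). Among all genes past the filter it lay above 1 for 29% and below 1 for 34.4%.

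Of 10 DNA-binding or structural factors studied at the c-myb locus, 4 were at least 2-fold lower and the median log2 ratio was −0.22. All 4 lay in the highest of the 4 groups by level, in which 42.7% of genes were at least 2-fold lower. Jun (362 and 76 reads, −2.19) and Jund (188 and 62, −1.54) encode AP-1 subunits, Hoxa9 (132 and 54, −1.23) a homeobox factor of progenitors, and Sfpi1 (1360 and 586, −1.16) the myeloid factor PU.1. The spans of Jun, Jund and Hoxa9 comprise 3, 2 and 4 windows, so each averages far fewer windows than Myb with its 51. Meis1, the partner of Hoxa9, was at −0.01, and Ctcf and the cohesin subunit Rad21, both structural proteins, at −0.08 and 0.14. Of 12 piRNA pathway genes known as A-Myb targets in testis, 11 were matched, none was past 2-fold and the median log2 ratio was 0.38. The interval lay above 1 for 7 of the 11, beside 29% of the genes past the filter, and below 1 for 1. Tdrd1 (385 and 541 reads) and Asz1 (156 and 218), both at 0.54, had the largest ratios of that list, and Piwil1 was at −0.40. Mybl1, at −0.10, lay below the median of this list. The median level of the list in untreated cells was 7.40 reads per window, beside 9.33 for the genes past the filter. Across the table the median log2 ratio was 0.34 in the lowest and 0.16 in the second of the 4 groups by level. The part of level in the ratios of this list was not tested.

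**Figure D5:**
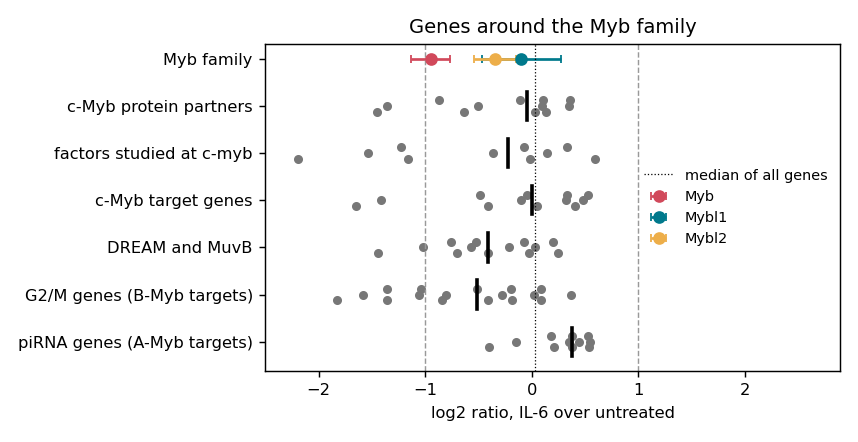
Log2 ratio of IL-6 to untreated reads on the table's scaling for the Myb family (colored, with 95% intervals) and for 6 lists of genes tied to the Myb proteins (grey, 1 point per gene), with list medians as black bars, the median of all genes past the filter dotted and 2-fold lines dashed. The median of the B-Myb target list is −0.51 and that of the A-Myb target list 0.38, and under the scaling over strong windows every point moves up by 1.83, so that all listed genes but Jun and Ube2c lie above 0.

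The marker lists gave these values beside those of the Myb family. The median log2 ratio was −0.49 for the progenitor markers, −0.38 for the macrophage markers, 0.26 for T cell, 0.39 for B cell and 0.29 for erythroid markers. At least 2-fold lower were 3 of 10 macrophage markers, Cd68, Cd14 and Fcgr1, beside 13.4% of all genes past the filter. So were 1 of 7 progenitor (Prtn3), 1 of 6 T cell (Cd3d) and 1 of 5 erythroid (Klf1) markers. Each of these genes lay in the highest of the 4 groups by level, in which 42.7% of genes were at least 2-fold lower. The macrophage markers went from 2.43 to 129 reads per window in untreated cells to 2.77 to 26.0 after IL-6. The progenitor markers ranged from 4.10 to 53.4 and then from 5.45 to 29.5 reads per window. All marker genes but Cd68 lay above untreated under the scaling over strong windows. The part of a change in cell state or cell mixture in the Myb family values was not tested.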

How the data were processed

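DHS-seq was performed on 1 untreated and 1 IL-6-treated M1 library. Per the labels, reads were mapped with BWA to NCBIM37 (mm9); the version is not given in the sources used here. The authors deposited, per transcript, the mean and SD of a signal (reads per 700-bp window over the coding span) for each library, with the counts of windows; a column without values and the number of coding parts were not used.

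Reads were recovered as mean times windows, since all values were whole multiples of 1 read (largest distance 0.00266 reads in untreated and 0.00289 in IL-6 cells); 1 IL-6 read is worth 1.038, as inferred from these steps. The transcript with most windows stood for a gene. Ratios had 95% Clopper-Pearson intervals and relative changes exact conditional intervals, with log2 ratios after adding 0.5 reads. Reads may be PCR copies and clustered in windows, so true errors are larger. Genes exceeding 21 reads in one or both libraries were counted at 2-fold. The strongest window was bounded from mean and SD. On data simulated with Poisson counting error alone, the ratio interval held the fold of 189 of 200 changed genes, and the relative change interval 192 of 200. This checks the computation only, since the simulated counts lack the clustering of real reads.

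Named genes were the members, the 3 nearest genes of each in the plane of both log2 means, and listed genes past 2-fold or else with the largest log2 ratios; others are named as values of a list. Members and lists were chosen with earlier results of these data known. Alternatives were other scalings, reads added, filters, folds, transcripts and comparison sets. Spans matched GENCODE M1 on NCBIM37 within 3 bp for 99.4% of transcripts. Python 3.11.15, pandas 2.3.3, scipy 1.17.1 and Biopython 1.88 were used.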

Additional observations from a re-analysis of the deposited data

How the results depend on the processing

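The 39 results were recomputed under 124 alternatives. The counting interval, or 1.5 times a count, held 84 of these values, 34 moved further and 6 reversed. No paired analysis was possible because there was 1 library per condition, and for the same reason no replicate could be left out. Scaling to the median ratio of strong single windows changed most: the log2 ratio became 0.88 for Myb, 1.48 for Mybl2 and 1.73 for Mybl1, and 0.12 in the 5′ windows of Myb, 1.07 in its other windows and 1.32 in the outer windows of Mybl2. By that scaling 16 genes were at least 2-fold lower and 17687 higher, against 2477 and 315, so that the share of lower genes among those past 2-fold was 0.0904% instead of 88.7%. None (0) of the listed genes was then 2-fold lower. Those 2-fold higher were 9 of 12 c-Myb partners, 6 of 10 factors at c-myb and 11 of 13 c-Myb targets. So were 11 of 13 DREAM and MuvB genes, 10 of 17 B-Myb targets and 11 of 11 A-Myb targets, beside 17687 of 20848 genes. With totals over coding spans the DREAM and MuvB count went from 2 to 1 lower. Transcript choice gave log2 ratios of −0.75 for Myb-201 and 0.054 for Mybl2-005, and with the fewest windows the untreated level ratio of Mybl2 to Mybl1 was 3.38. A fold of 1.5 gave 4289 lower and 2000 higher genes (68.2% lower). The count of higher genes was 1092 with no filter (71.4% lower), 97 above 50 reads and 176 with 5 reads added. Among genes above 21 reads the percentiles of level, untreated and IL-6, were 69.8 and 34.8 for Myb, 8.16 and 4.41 for Mybl1, and 63.6 and 52.8 for Mybl2. Within its chromosome they were 77.2 and 49.1 for Myb, 11.6 and 4.96 for Mybl1, and 75.3 (untreated) for Mybl2. Scalings by 1 factor leave the relative changes between members unchanged by construction. Scaling by chromosome totals, chosen for these after seeing the data, moved Myb against Mybl1 from 0.555 to 0.597 and Mybl2 against Mybl1 from 0.843 to 0.915. With the fewest-window transcripts the change of Mybl2 relative to Mybl1 was 1.11. Low counts limit Mybl1 most.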
